A study of Mus musculus with 8 samples.

Results

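Of the 55681 probes on the array that were not controls, 16194 (29.1%) carried a chromosome range in place of a transcript accession, and none of these had a gene symbol. They were chosen by name alone, as every such probe whose systematic name starts with "chr". The ranges are mouse genome positions of build mm9, per the file headers, and most end in a suffix, F or R, whose meaning the files do not state. Signal was measured with 8 one-colour Agilent arrays in sorted Lgr5-high intestinal stem cells of mice, 4 labelled control and 4 labelled Irf2_AhcKO. Control mice were Irf2fl/fl:Lgr5-EGFP-Ires-CreERT2, with both Irf2 alleles flanked by recombination sites. Irf2_AhcKO mice were Irf2fl/fl:AhCre:Lgr5-EGFP-Ires-CreERT2 and so carried in addition the Ah-Cre transgene, whose promoter is switched on by beta-naphthoflavone in several epithelia. All mice carried the Lgr5 reporter and its inducible Cre, received beta-naphthoflavone on 5 days and were sampled 1 month later. By these genotype labels the controls lacked Ah-Cre, although the scanner data of some control arrays are named otherwise, as given below. The labels give no age for the mice.

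Much of the genome outside annotated genes is transcribed at low levels. Large intergenic noncoding RNAs were first catalogued as stretches of chromatin that carry the histone marks of active promoters and of transcribed gene bodies and that lie away from known coding genes. A range of this kind marks a place where a transcript may lie and not the ends of a known transcript. Irf2 is a transcription factor that binds the control elements of interferon-responsive genes and is known mainly as a repressor of them. The comparison asks whether the signal at these ranges differed between mice labelled Irf2_AhcKO and control. No genome of build mm9 was used here, so no range is assigned to a gene, exon or intron, and no sequence is given.

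The 16194 probes covered 3543 ranges, of which 1067 had probes under both suffixes, 2473 under 1 suffix and 3 had no suffix. Suffix F stood on 8171 probes, suffix R on 8010 and neither on 13. A range with its suffix, called a name below, held between 1 and 10 probes, with a median of 3. The ranges ran from 62 bases on chromosome 5 to 7128487 bases on chromosome 7, with a median of 7304 bases. Of the ranges, 2101 overlapped another range, and joining overlaps left 2226 separate loci of up to 14 ranges each. The probes lay on 20 chromosomes, from 322 on chromosome 19 to 1199 on chromosome 1. Probes of a name, of the opposite suffix or of an overlapping range can read the same transcript, so they are not replicates of each other.

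The labels were checked first on the targeted gene and on cell type markers. Irf2 read 0.99, 0.55, 0.37 and 0.64 in control replicates 1 to 4 and 1.12, 1.096, 0.70 and 0.73 in the Irf2_AhcKO replicates. These values, like all levels here, are log2 signal minus the 75th percentile of the array. The Irf2_AhcKO arrays were thus not lower at the Irf2 probe (difference 0.27, adjusted p = 0.465, limma), and the labels do not say whether that probe lies in the deleted part. Ah-Cre also appears in what the scanner data of 2 control arrays, replicates 3 and 4, are called, and the groups are those of the labels throughout. The stem cell markers Lgr5, Ascl2, Smoc2, Axin2 and Epcam were well above background on all 8 arrays, between 0.67 and 6.45, and Olfm4 had no probe. Of 19 measured markers of other intestinal, immune, mesenchymal, endothelial and red cells, 14 were well above background on all 8 arrays, and their mean log2 level was -0.63 to -0.13 in control and -0.84 to -0.26 in Irf2_AhcKO arrays. The upper control value came from Sis, an enterocyte marker that read 10.42 in control replicate 4 and -2.62 to -0.79 on the other 7 arrays. Without Sis the means were -0.72 to -0.49 in control, control replicate 4 being the lowest, and -0.74 to -0.19 in Irf2_AhcKO arrays. These means pool markers of very unlike level. Lyz1 of Paneth cells read 3.96 to 5.26, above Lgr5 at 2.34 to 3.46. Mmp7, Tff3 and Chgb had medians of 2.93, 2.95 and 2.75, near the 2.98 of Lgr5. The enterocyte, leukocyte, mesenchymal, endothelial and red cell markers all had negative medians. The part of other cells in the results was not tested. Slide 1 and scan 1 held replicates 1 and 2 of both groups, and slide 2 and scan 2 held replicates 3 and 4. The labels speak of separate mice but also of 2 biological replicates, so p-values here speak of the spread among these 8 arrays, which may in part be technical.

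A probe counted as detected when the scanner software marked it well above background. On the control arrays 66.1%, 63.0%, 55.3% and 57.5% of the range-named probes were detected, and on the Irf2_AhcKO arrays 61.8%, 61.7%, 56.1% and 59.1%. The groups overlapped, with the control arrays at both the top and the bottom. In bulk samples such as these, fewer cells of a type and less RNA per cell cannot be told apart. The mean was 60.5% ± 4.99 (SD, n = 4) in control and 59.7% ± 2.69 (SD, n = 4) in Irf2_AhcKO, a difference of -0.79 percentage points (exact permutation test over the 8 arrays, two-sided, p = 0.771). With labels exchanged only within slides the exact permutation p was 0.611, and the difference was -2.81 points on slide 1 and 1.24 on slide 2. The slides themselves did not overlap: the 4 arrays of slide 1 detected 61.7% to 66.1% of the probes and those of slide 2 55.3% to 59.1%. That gap of -6.19 points had an exact permutation p of 0.0286, the smallest that 4 arrays against 4 allow.

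Other probes on the same arrays give the scale for these shares. Probes with NM accessions, which mark curated protein-coding transcripts, had a mean detected share of 70.9% in control and 70.2% in Irf2_AhcKO. Probes with NR accessions, which mark curated noncoding transcripts, had 50.1% and 49.5%, and all other probes 59.8% and 59.2%. Range-named probes thus lay between the coding and the curated noncoding class on every array. Slide 2 was lower in these classes too, with a gap of -3.86 points for NM and -5.72 points for NR probes (exact permutation p = 0.0286 each).

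Over the 8 arrays, 7860 range-named probes (48.5%) were detected on every array, 3975 (24.5%) on none and 4359 on 1 to 7. Probes detected on at least 4 arrays were kept for the tests, which left 9848 (60.8%) against 70.9% of NM probes and 50.5% of NR probes. The kept probes lay in 2917 of the 3543 ranges (82.3%). Of the 3385 names with 3 or more probes, 935 had every probe kept, 452 had none and 1998 had some. Within most such names, then, neighbouring probes differed in whether they were detected. The mean detected share was 60.1% for suffix F and 60.0% for suffix R. By length it was 54.0% for probes of the shortest ranges (up to 7.276 kb), 65.6% for those of middle length (7.297 to 22.751 kb) and 60.6% for the longest. By chromosome it ran from 52.8% on chromosome 10 to 70.6% on chromosome 17.

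Kept range-named probes were dim. Their median level over the 8 arrays was -1.84, with 5% of them below -4.19 and 5% above 3.09, and 311 (3.16%) lay above 4. The kept NM probes had a median of -0.33, with 7.07% above 4, and the kept NR probes a median of -1.83, with 7.36% above 4. The median of kept range-named probes read -1.82, -1.81, -1.91 and -1.78 on the control arrays and -1.72, -1.71, -1.83 and -1.78 on the Irf2_AhcKO arrays. Irf2_AhcKO replicate 3 lay below 3 of the 4 control arrays, so the groups overlapped. The group means were -1.83 ± 0.055 and -1.76 ± 0.056 (SD, n = 4 each), a difference of 0.068 (exact permutation test, two-sided, p = 0.171; 0.111 within slides). Between same-numbered arrays the difference was 0.10, 0.095, 0.074 and 0.003, positive in 4 of 4 pairs (exact permutation p = 0.125, the smallest that 4 pairs allow). Set against the NM median of the same array, the range-named median stood at -1.51 ± 0.077 in control and -1.43 ± 0.072 in Irf2_AhcKO (SD, n = 4 each), a difference of 0.087 with the same exact permutation p of 0.171. The median of kept probes differed between the groups by -0.019 for NM, 0.031 for NR and 0.074 for all other probes.

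The 6 range-named probes of highest mean signal overlapped between the genotypes. At chr17:39960567-39992817, suffix R, the top probe had a mean of 9.19 ± 0.21 in control and 9.19 ± 0.20 in Irf2_AhcKO (SD, n = 4 each). Next came chr2:151992806-152025456, suffix F, at 9.12 in control and 9.04 in Irf2_AhcKO. It was followed by chrX:33750475-33770425, suffix F, at 8.94 and 8.86, and by chr19:5801802-5802597, suffix R, at 8.42 and 8.49. A range on chromosome 18 read 8.34 and 8.36, and chr10:83325890-83402790, suffix R, read 8.14 and 7.99. Their adjusted p lay between 0.515 and 0.994 (limma).

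No range-named probe passed the test between the genotypes. The limma fit over all 31681 features, with the slide as a term, called 0 of the 9848 probes at an adjusted p below 0.05, against 0.0473% of all features (0.0221% higher, 0.0253% lower). The smallest adjusted p among them was 0.05002, just above the threshold, at a probe of chr7:137669440-137672712 that entered the test through the Irf2_AhcKO arrays alone, being above background on no control array. Among probes detected on all 8 arrays it was 0.0508, at chr19:46422690-46423478. At an unadjusted p below 0.05 there were 1070 range-named probes (10.9%), the same share as the 10.9% over all features. Of the 1070, 751 were higher in Irf2_AhcKO and 319 lower, which is 7.63% and 3.24% of the probes tested, against 5.93% and 4.99% of all features. Among the features that were not range-named, 1127 were higher and 1262 lower. The higher share of the 1070 was 70.2%, and it was 59.5% when arrays were scaled on the median of all spots and 80.4% when they were scaled on probes with NM and NR accessions. Probes whose 4 Irf2_AhcKO values all lay on one side of the 4 control values numbered 272 (2.76%), 181 higher and 91 lower, against 3.61% of all features (1.72% higher, 1.89% lower). The call of 0 depended on the processing. With normexp background correction 26 range-named probes passed, 18 higher and 8 lower (0.423% of all features passed), and among probes detected on all 8 arrays 5 passed (0.116% of all features). With replicate number as a block 0 range-named probes and 0 of all features passed, against the 15 of all features above.

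The differences of the range-named probes were small and lay more often above 0 than those of the coding features. Their median log2 difference, Irf2_AhcKO minus control, was 0.043, with quartiles at -0.11 and 0.20. The median was 0.003 over all features and -0.026 over NM features. With arrays scaled on the median of all spots it was 0.016 for range-named probes and -0.025 for all features, and with RefSeq scaling it was 0.076 and 0.035. A positive difference was found at 58.0% of range-named probes, against 50.5% of all features, 44.0% of NM and 56.8% of NR features. Without any filter on dim probes the share was 56.8% of all 16194 range-named probes, against 52.3% of all features. The median was 0.049 on slide 1 and 0.033 on slide 2, and 0.040, 0.053, 0.031 and 0.021 between the arrays of replicates 1, 2, 3 and 4. NM features gave -0.041, -0.042, -0.036 and 0.012 in the same pairs. These medians carry no test, and the classes were not picked alike, since a gene was represented by its brightest probe while each range-named probe counted by itself.

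Signal level moved with that balance. Among range-named probes at a mean level between -4 and -2 the median difference was 0.059, between -2 and 0 it was 0.056 and between 0 and 2 it was 0.037. At levels above 2 it was -0.016, and 54 of the 91 probes there with an unadjusted p below 0.05 (59.3%) were lower in Irf2_AhcKO, against 68.9% of the 505 such features overall and 67.7% of the 269 NM features. NM features at the same levels had medians of 0.011, -0.019, -0.038 and -0.039. Below -4 the classes were alike, at 0.016 and 0.018. The remaining features without a RefSeq accession resembled the range-named ones from -4 to 0, at 0.054 and 0.057. The part of signal level or scaling in the balance was not tested.

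The largest differences were picked by rule from probes detected on all 8 arrays, with an unadjusted p below 0.05 and the same sign on both slides. Since this rule uses the contrast itself, the values are a description. The 8 most increased differed by 1.04 to 1.34 and the 8 most decreased by -1.80 to -0.88, with adjusted p between 0.069 and 0.448 (limma). The most increased, at chr10:120116843-120182671, suffix R, read -1.24, -0.65, -0.61 and -0.75 in control and 0.69, 0.34, 0.40 and 0.69 in Irf2_AhcKO. All 4 Irf2_AhcKO values lay above all control values there (difference 1.34, SE 0.16, adjusted p = 0.069). The other 2 kept probes of that range had differences of -0.33 and -0.11, so the difference was not shared along the range.

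Further increased probes lay on chromosomes 1, 7, 11, 12 and 19 and at a second range of chromosome 10. At chr1:71730139-71730720, suffix F, values were -1.18, -0.29, -0.69 and -0.62 in control and 0.70, 0.75, 0.30 and 0.57 in Irf2_AhcKO, with no overlap (difference 1.27, adjusted p = 0.144, limma). At chr1:72281533-72299401, suffix R, they were -2.30, -1.59, -1.43 and -1.26 against -0.90, -0.61, -0.62 and -0.29, again with no overlap (1.04, adjusted p = 0.157, limma). The probes at chr11:53592946-53637922, suffix R, chr12:111824094-111838478, suffix R, and chr10:66574421-66575488, suffix F, differed by 1.31, 1.20 and 1.13, and the chromosome 12 groups overlapped. Among the decreased, chr3:137736327-137752677, suffix F (-0.95), chr9:58301467-58323783, suffix R (-1.12), chr13:112207480-112213280, suffix R (-0.91), and chr1:139713316-139913366, suffix R (-0.88), had overlapping groups. At the chromosome 3 probe the 4 same-numbered pairs nonetheless differed by -0.99, -1.06, -0.93 and -0.84 (unadjusted p = 7.3e-05 and adjusted p = 0.116 with the replicate block, 0.0075 and 0.321 without it, limma). At chr15:98842850-98853100, suffix F, values were -2.11, -1.61, -2.63 and -2.67 in control and -3.07, -2.91, -3.76 and -3.03 in Irf2_AhcKO, which did not overlap (-0.94, adjusted p = 0.217, limma).

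The deepest decreases shared a single locus on chromosome 9, made of 2 overlapping ranges between 78104935 and 78118850. All 8 kept probes of the locus were lower in Irf2_AhcKO, by -1.80 to -1.20, and all 8 had an unadjusted p below 0.05. Averaged over these probes the locus read 0.20, 0.20, 0.60 and -0.59 in control and -1.39, -1.40, -1.12 and -1.96 in Irf2_AhcKO. Each Irf2_AhcKO array lay below each control array, and replicate 4 was the lowest of both groups. The 5 probes of suffix R at chr9:78107225-78118850 gave a mean difference of -1.58, and the 2 kept probes of suffix F at the same range gave -1.66. The difference was -1.60 on slide 1 and -1.55 on slide 2. The smallest adjusted p among the suffix R probes was 0.145 (limma), and 0.057 with the replicate block. With normexp 5 of the 8 probes, 4 of them suffix R, passed, with adjusted p between 0.024 and 0.044.

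Names whose probes moved together were ranked by the share of their probes at an unadjusted p below 0.05. Among the 1580 names with 3 or more kept probes, 588 (37.2%) had differences of one sign at every probe, 375 higher and 213 lower. At 19 of these every probe had an unadjusted p below 0.05, and 16 of the 19 were higher. The rule named the 6 with most probes, each with 5. Since this rule uses the contrast itself, the values here and in the next paragraph are a description. Probes of a name can read the same transcript, and no share over other features stands beside these counts. At chr6:131263850-131314850, suffix F averaged -1.27, -0.87, -0.30 and -0.08 in control and 0.07, -0.30, 0.29 and 0.38 in Irf2_AhcKO. The groups overlapped, since control replicate 4 lay above Irf2_AhcKO replicate 2. The difference was 0.74 for suffix F and 0.74 for suffix R, and for suffix F it was 0.95 on slide 1 and 0.53 on slide 2.

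At chr17:56687541-56694616 both suffixes were higher. Suffix R averaged -1.50, -1.22, -0.81 and -1.12 in control and -0.70, -0.43, -0.37 and -0.42 in Irf2_AhcKO, with no overlap, a difference of 0.68. Suffix F averaged -0.97, -0.73, -0.43 and -0.66 against -0.43, -0.37, -0.06 and -0.14, a difference of 0.45, and the highest control array fell just short of the lowest Irf2_AhcKO array. A range with the same start, chr17:56687541-56694631, differed by only 0.18 under suffix F and by -0.035 under suffix R. Over the joined locus 18 of 21 kept probes were higher, with a mean difference of 0.32 and overlapping groups. At chr10:96082444-96096696, suffix R, the mean was -1.01 ± 0.11 in control and -0.68 ± 0.091 in Irf2_AhcKO (SD, n = 4 each). Those groups did not overlap. When probes of a name were averaged before the fit, the adjusted p of these 6 names lay between 0.136 and 0.260 (limma over 25650 features, 0.0975% of them called).

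The locus with most probes at an unadjusted p below 0.05 lay on chromosome 19, from 5771425 to 5848475, and was chosen after its values were seen. It joined 6 overlapping ranges with 26 kept probes, of which 14 had an unadjusted p below 0.05 and 23 had a positive difference. The range that spans it, suffix F, averaged 0.67, 0.76, 0.85 and 1.08 in control and 1.37, 1.45, 1.47 and 1.44 in Irf2_AhcKO. The groups did not overlap, all 10 probes were higher by 0.36 to 0.92, and 9 of them had an unadjusted p below 0.05. The smallest adjusted p of its probes was 0.057 (limma).

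The short ranges inside that locus behaved differently from each other. At chr19:5795690-5797464, suffix F, chr19:5798135-5800557, suffix R, and chr19:5801802-5802597, suffix R, the control means were 6.49, 4.49 and 7.40. Their differences were -0.048, -0.016 and 0.076, and their groups overlapped. At chr19:5841103-5845579, suffix F, values were -0.23, -0.51, -0.23 and -0.14 in control and 0.41, 0.48, 0.36 and 0.34 in Irf2_AhcKO, with no overlap and a difference of 0.67 ± 0.10 (SE).

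The remaining short range, chr19:5834117-5835940, suffix R, differed by slide as well as by genotype. It read 0.89 and 1.12 in control and 1.95 and 2.34 in Irf2_AhcKO on slide 1. On slide 2 the same groups read -0.20 and -0.23, and 0.16 and 0.27. Within each slide the Irf2_AhcKO arrays were higher, by 1.14 and by 0.43, while over both slides the groups overlapped. All 3 of its probes had an unadjusted p below 0.05, with a mean difference of 0.79.

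Probes with an unadjusted p below 0.05 were spread widely. They lay in 649 of the 1889 loci with a kept probe, and 430 of these loci held only 1. The 9 loci with 7 or more, chosen after their values were seen, held 87 of the 1070 (8.13%). Beside those already described on chromosomes 6, 9, 17 and 19 they included chr4:129488462-129516410, where 18 of 19 kept probes were higher and the locus mean was 0.34 ± 0.22 in control and 0.68 ± 0.050 in Irf2_AhcKO (SD, n = 4 each). All 11 probes of chr3:10081893-10094218 were higher, with a mean difference of 0.38 and overlapping groups. At chr16:89961600-89971725 all 7 kept probes were higher, by 0.63 to 0.91, and the groups overlapped, with differences of 0.83 on slide 1 and 0.70 on slide 2. At chr10:83181374-83249918, 18 of 20 probes were higher (mean difference 0.23, groups apart). At chr14:22267795-22319045, 11 of the 15 probes were lower than in control, with a mean difference of -0.18 and overlapping groups.

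A few probes were detected in a single genotype. Detection on all 4 Irf2_AhcKO arrays and on no control array was found at 7 range-named probes (0.0432%), against 0.0305% of all probes. The reverse was found at 4 (0.0247%), against 0.0251% of all probes. For such probes a fold was taken against the higher of the dim probe's own signal and the lowest detected signal of each array. It rests on signal not well above background in 1 group and is not a firm lower bound. The first group lay on chromosomes 7, 8, 11, 18 and X and was 1.65-fold to 6.64-fold higher in Irf2_AhcKO. With normexp background correction its log2 differences were only 0.15 to 0.50. The second lay on chromosomes 1, 2, 7 and 8 and was 1.65-fold to 3.17-fold lower, with normexp differences of -0.32 to -0.093. All 11 entered the test through 1 group alone, so their p-values are not read as support. None passed in the fit reported. The chromosome 7 probe with the largest fold passed under other settings, namely scaling on the median of all spots, no slide term and the slide as a random block.

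The strongest of the probes detected in a single genotype lay at chr7:137669440-137672712, suffix F, where all 3 probes were higher, by 1.12 to 2.74. Their mean read -5.64, -4.71, -4.51 and -4.87 in control and -2.33, -3.21, -3.17 and -3.22 in Irf2_AhcKO, with no overlap. At 2 of the 3 probes no control array and every Irf2_AhcKO array was above background. For the larger of the 2 differences the fold, taken as above, was 6.64 (measured means -6.18 and -3.44). With normexp background correction, which raises dim signals by an offset, that probe's difference was 0.37. The array also holds a longer range that overlaps chr7:137669440-137672712. Its kept probes had a mean difference of only 0.033 under suffix F, at a mean level of -3.67, and of 0.10 under suffix R. The increase was thus not shared by the overlapping range.

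At chr11:53592946-53637922 both suffixes held a named probe. The suffix F probe was above background in no control and in all Irf2_AhcKO arrays (3.92-fold, taken as above). The suffix R probe was detected everywhere and read -3.65, -2.52, -3.27 and -1.83 in control and -1.12, -1.54, -1.57 and -1.82 in Irf2_AhcKO. Control replicate 4 lay next to Irf2_AhcKO replicate 4 there.

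Further probes were among the 6 of smallest p and were chosen after their values were seen. At chr19:46422690-46423478, suffix R, the 3 probes averaged -1.15, -1.26, -1.66 and -1.58 in control and -2.25, -2.01, -2.71 and -2.44 in Irf2_AhcKO. All Irf2_AhcKO arrays lay below all control arrays, and the difference was -0.92 on slide 1 and -0.95 on slide 2. This was the only name called when probes of a name were averaged before the fit (-0.94 ± 0.097 SE, adjusted p = 0.0351, limma), and its best probe alone had an adjusted p of 0.0508. At chr5:4570525-4597875, suffix F, the single probe read -2.65, -2.10, -2.54 and -2.44 against -1.20, -1.33, -1.58 and -1.51 (difference 1.03, adjusted p = 0.086, limma). At chr15:86035939-86042539, suffix R, 1 probe differed by 0.72 (adjusted p = 0.0625, limma) and the other 2 by -0.11 each.

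Probes under suffixes F and R of the same range were compared to see how far they moved together. Of the 1067 ranges with both, 900 (84.3%) had kept probes under both suffixes, 71 under F only, 68 under R only and 28 under neither. Over the 900 ranges the mean levels had a Pearson r of 0.45, and 203 (22.6%) differed by more than 2 log2 units between suffixes. The genotype differences had an r of 0.35, and 565 (62.8%) had the same sign, 377 both higher and 188 both lower. Both measures share arrays and scaling, and they are given as a description. Within names of 3 or more kept probes the median SD of probe differences was 0.17, against 0.31 over all kept range-named probes, and the SD of levels was 1.32 against 2.30.

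Ranges with many probes showed how much signal varied along one range. The rule took 4 ranges with 10 kept probes under each suffix, and the last place was shared by 5 ranges and given by name. At chr4:126710640-126721240 probe levels ran from -0.78 to 3.25 under suffix F, and 8 of the 10 differences were positive, 4 of them with an unadjusted p below 0.05. At chr16:43623581-43642715 levels ran from -4.19 to 2.74 under suffix F, and 9 of 10 differences were negative, with a mean difference of -0.23 and overlapping groups. At chr14:65431652-65437902 the mean differences were 0.048 and -0.011 for F and R. At chr6:129151512-129208737 they were -0.17 and -0.007. None of these 8 names had a probe that passed the test, the smallest adjusted p being 0.343 (limma).

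The slides separated far more range-named probes than the genotypes did. With genotype in the model, 3545 of the 9848 (36%) had an adjusted p below 0.05 between slides, against 34.4% of all features, 1254 of them higher and 2291 lower on slide 2. The comparable shares over all features were 11.8% and 22.6%. That split followed the scaling: on the median of all spots 1897 range-named probes were higher and 1733 lower on slide 2, and 6018 and 5087 of all features. Quantile normalization gave 1487 higher and 1885 lower. Detection on all 4 arrays of slide 1 and on none of slide 2 was found at 281 range-named probes (1.74%), against 1.36% of all probes, and the reverse at 12 (0.0741%), against 0.0413%. The genotype difference itself differed between slides at 0 probes (adjusted p of the interaction, limma) and at 569 (5.78%) at an unadjusted p below 0.05, against 4.56% of all features.

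Some probes shifted by about 2 log2 units or more between slides while the genotypes stayed together. The values that follow are those of single probes and not of whole ranges. At chr17:39960567-39992817, suffix F, the arrays read 3.50, 3.62, 3.60 and 3.47 on slide 1 and 5.87, 5.81, 5.95 and 5.79 on slide 2 (2.31, adjusted p = 9.6e-05, limma), while the suffix R probe of that range described above shifted by -0.33. At chr2:143963320-143984245, suffix F, slide 2 was higher by 1.99. At chr4:118723941-118757032, suffix R, slide 2 was lower, by -2.51, with values of -1.40 to -1.16 on slide 1 and -3.89 to -3.62 on slide 2. The fourth probe by rule, at chr11:97505439-97522274, suffix F, owed its difference of -2.99 to control replicate 1, which read 8.78 while the other 7 arrays read -2.45 to -1.52 (adjusted p = 0.322, limma). Without that array its slide difference was -0.43.

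Named long noncoding RNA genes served as the known genes most like these ranges. Of 50 listed, 36 had a probe and 29 were tested, and 0 passed the adjusted threshold in limma. Their mean levels ran from -3.69 to 3.99, with a median of 0.91. An unadjusted p below 0.05 was found at 3 of the 29, where 10.9% of all features had one. These were Malat1, an abundant RNA of nuclear speckles (0.33), Kcnq1ot1, an imprinted antisense transcript (0.96), and Rmrp, the RNA of the RNase MRP complex (-0.77). Their adjusted p lay between 0.408 and 0.434 (limma). Of the 29, 14 had a positive difference, against 50.5% of all features, and the median was -0.039 against 0.003 over all features. Xist, the RNA that coats the inactive X chromosome, read 5.83 and 5.89 in replicate 4 of control and Irf2_AhcKO and -4.68 to -3.55 on the other 6 arrays, so the replicate 4 arrays stood apart alike in both groups.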

How the data were processed

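Processed files of 8 arrays (4 control, 4 Irf2_AhcKO) were used. Per the labels' protocols, RNA was amplified and labelled with Cy3. The deposited scanner files come from Agilent Feature Extraction (version 11.5.1.1, per the file headers), which gives each of 62976 spots a background-subtracted, detrended intensity and flags for detection and outliers. The deposited series table holds the same intensity times 1 constant per array. No spot was saturated, and between 141 and 214 spots per array were flagged as outliers and left out.

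From the deposited intensity a log2 value was taken, less the 75th percentile of the 59305 non-control spots of the array. Symbols came from RefSeq accessions (GRCm38.p6, names only). Probes well above background on at least 4 of 8 arrays were kept, a gene being represented by its brightest kept probe and each range-named probe by itself. limma 3.58.1 in R 4.3.3 (lmFit, eBayes, two-sided) was fitted with genotype and slide as terms, and p was adjusted (Benjamini-Hochberg, threshold 0.05) over all 31681 features. Single values per array were compared with exact permutation tests. Alternatives were other scalings, normexp background correction (on the median signal, offset 50), filters, slide terms, a replicate block, averaged names and each array left out. The fit was tested on simulated data. The number of arrays limits the precision.

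Range-named probes, lists and rules were chosen with earlier results of these data known. Named by rule were: members with adjusted p below 0.05; the 8 most increased and 8 most decreased; the 6 brightest; 6 names with probes of one sign; 4 ranges with both suffixes; and 4 probes by slide. Same-numbered arrays deviated together (r across features 0.44, 0.45, 0.48 and 0.52), so replicate numbers were taken as pairs by the rule used, although the labels do not state what a number shares.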

Additional observations from a re-analysis of the deposited data

Results flagged for a closer look

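Among 140 groups of 4 arrays examined for the probes and ranges named, 6 had a value far from the other 3 (Dixon's test at the 95% level). Chance flags about 1 in 20 groups, and over all kept range-named probes 736 of 19696 groups (3.74%) were flagged. The probe at chr11:97505439-97522274, suffix F, read 8.78 in control replicate 1, against -1.86 to -1.62 in the other control arrays. At chr19:5798135-5800557, suffix R, control replicate 4 was low at 4.29, against 4.55 to 4.57. At chr7:137669440-137672712, suffix F, Irf2_AhcKO replicate 1 was high at -2.33, against -3.22 to -3.17. At chr11:53592946-53637922, suffix F, Irf2_AhcKO replicate 3 was high at -3.67, against -4.11 to -4.04. At chr8:48476637-48492537, suffix F, Irf2_AhcKO replicate 1 was low at -5.89, against -4.29 to -4.25. At chr1:139713316-139913366, suffix R, Irf2_AhcKO replicate 2 was low at -5.14, against -4.48 to -4.43, at a dim probe of that range. At the last 2 of these probes no Irf2_AhcKO array was well above background.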

How the results depend on the processing

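The count of 0 range-named probes called between genotypes became 2 with scaling on the median of all spots, 1 with quantile normalization, 1 without the slide term, 5 with the slide as a random block, 5 of probes detected on all 8 arrays, 1 of names averaged before the fit and 26 (18 higher, 8 lower, in 16 ranges) with normexp, 5 of which were called under another setting too. Over all features, with 15 in the fit reported, these settings called 18, 16, 10, 39, 31, 25 and 134. Calls outside normexp lay on chromosomes 5, 7, 10, 15 and 19 and are described above. The chromosome 7 call, the only one without the slide term, was of a probe above background on no control array. Normexp also called probes on chromosomes 1, 6, 9, 12, 16 and 17. With the brightest probe per identifier, an alternative chosen after seeing the data, it was 1, at chr15:86035939-86042539. The replicate block called 0, with 1144 at an unadjusted p below 0.05, and 0 of all features. That unadjusted count was 427 without the slide term, 586 on slide 2 alone, 411 for averaged names and 469 for the brightest probe per identifier, against 1555, 1680, 2922 and 2981 of all features. The median difference was 0.076 with RefSeq scaling, 0.016 with median scaling, 0.029 with normexp and 0.061 with the brightest probe per identifier. The share above 0 was 63.4%, 52.7%, 59.7% and 62.5% under the same 4 settings, 56.0% with quantile normalization, 56.8% without a filter, 58.9% on all 8 arrays, 56.3% on slide 1, 56.2% on slide 2 and 59.9% for averaged names. Moved here means by more than 1 SD over the 4 same-numbered pairs. Slide calls were 1441 for averaged names and 1515 for the brightest probe per identifier, with fewer features tested. The detected share turned sign on slide 2 (1.24 points). Leaving out each array in turn gave 0 genotype calls, 823 to 1478 at an unadjusted p below 0.05, medians of 0.027 to 0.061, shares above 0 of 54.9% to 59.7%, detected shares of -2.52 to 1.096 points (turned to 1.096, 0.063 and 0.40 without control replicate 1, control replicate 2 and Irf2_AhcKO replicate 3) and slide calls of 2822 to 3047. The other 97 values of the main results stayed within these limits or within 1.5 times. The causes of the other changes were not tested.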
